A study of Homo sapiens with 36 samples.

Results

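The genes described here are 47 genes of mitosis and the kinetochore, taken by symbol from the 2 deposited tables of log2 expression values and followed through all 12 groups of a study of stearoyl-CoA desaturase (SCD) in melanoma cells. All 47 were present in both tables, among 13364 genes in the first and 13066 in the second. They were chosen by symbol for their function, by a rule that uses no measured value, although earlier results of these data were known when the list was made. SCD is the enzyme that places a double bond in saturated fatty acids. The study's labels give 36 libraries from 2 established human melanoma cell lines, 501mel and IGR37, with 3 libraries in each group. Both lines grew in RPMI medium with fetal bovine serum, and each library was made after 48 h. In each line the groups were DMSO, the SCD inhibitor A939372 at 1 uM (labelled SCDi), the control siRNA labelled siCTR with the SCD siRNA siSCD#2, and the control labelled siCTR_1 with the SCD siRNA siSCD#1, all siRNAs at 20 nM. Whether siCTR and siCTR_1 are the same siRNA is not given in the sources used here. DMSO, SCDi, siCTR and siSCD#2 shared the first table (24 libraries). The siCTR_1 and siSCD#1 groups stood in the second table (12 libraries), which was normalised separately, so no test crossed the tables. Each line is a single established line, and the labels do not say whether the 3 libraries of a group came from separate cultures. The p-values therefore measure the spread between these libraries, which may be technical. Each gene had 1 estimate of that spread, shared by all groups of its table, so libraries outside a comparison also shape its SE.

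A dividing cell enters mitosis when CDK1 bound to cyclin B is switched on by CDC25 phosphatases and supported by the Aurora and Polo kinases. Microtubules then attach to kinetochores, protein assemblies built on centromeric chromatin, and the spindle checkpoint holds back the anaphase-promoting complex until every chromosome is attached. The RNAs of these proteins are made mainly in G2 and mitosis, so in a bulk sample their summed level is widely read as a sign of how many cells are dividing. Many of their promoters carry the CHR element, TTTGAA, through which MuvB complexes repress the gene in resting cells and, together with B-MYB and FOXM1, activate it late in the cycle. A CCAAT box bound by NF-Y often lies upstream of it.

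That shared promoter layout was searched for in the RefSeq promoter windows (build GRCh38.p14), which run from 250 bases before to 50 bases after each transcription start. Windows were available for 40 of the 47 genes, 51 windows in all, since some genes have several starts. BIRC5, TTK, AURKA, BUB3, UBE2C, TPX2 and FOXM1 had no window. The letters TTTGAA, on either strand, were found in 33 of the 51 windows (64.7%), against 15.2% of all 35116 windows, and in 29 of the 40 genes. Within the 60 bases before the start the share was 39.2% of the members' windows and 3.01% of all windows. The letters CCAAT, on either strand, were in 74.5% of the members' windows and 34.6% of all windows. Both motifs stood in 52.9% against 5.9%. In 2 of the members' windows the motifs overlapped. A match of letters is a description and not a mapped binding site. The windows below show 10 of these promoters, 110 bases before to 20 bases after the start. They are written 5′ to 3′ on the gene's strand. Their genes were chosen by name among those described below, and others, such as CDK1, MAD2L1, MKI67 and INCENP, are not shown. For a gene with several windows, here CDC25C, PTTG1 and ZWINT, a window with the most matches was printed. Capitals mark TTTGAA or its reverse complement TTCAAA, and CCAAT or its reverse complement ATTGG.
CCNB1 (chr5:69167040-69167169, plus strand): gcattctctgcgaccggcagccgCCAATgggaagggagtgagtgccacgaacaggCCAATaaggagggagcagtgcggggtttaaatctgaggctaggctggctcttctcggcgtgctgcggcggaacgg
CCNB2 (chr15:59105036-59105165, plus strand): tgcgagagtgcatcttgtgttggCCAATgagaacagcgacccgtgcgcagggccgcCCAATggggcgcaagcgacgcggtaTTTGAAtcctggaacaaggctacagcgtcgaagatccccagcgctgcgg
CDC25C (chr5:138331785-138331914, minus strand): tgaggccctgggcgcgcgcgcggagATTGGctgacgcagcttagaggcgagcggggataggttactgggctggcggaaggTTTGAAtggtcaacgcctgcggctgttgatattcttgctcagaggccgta
PLK1 (chr16:23678779-23678908, plus strand): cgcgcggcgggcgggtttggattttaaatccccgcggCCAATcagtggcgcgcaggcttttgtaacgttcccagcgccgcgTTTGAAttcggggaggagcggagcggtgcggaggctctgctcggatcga
PTTG1 (chr5:160421745-160421874, plus strand): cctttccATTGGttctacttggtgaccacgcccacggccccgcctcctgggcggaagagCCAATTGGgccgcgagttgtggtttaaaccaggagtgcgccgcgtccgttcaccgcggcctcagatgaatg
CDCA8 (chr1:37692406-37692535, plus strand): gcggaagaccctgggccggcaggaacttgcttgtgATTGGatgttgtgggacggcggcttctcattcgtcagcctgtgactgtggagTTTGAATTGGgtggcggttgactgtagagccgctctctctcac
ZWINT (chr10:56361254-56361383, minus strand): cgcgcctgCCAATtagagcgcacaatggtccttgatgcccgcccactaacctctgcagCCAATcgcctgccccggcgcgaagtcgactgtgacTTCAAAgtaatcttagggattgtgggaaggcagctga
KIF11 (chr10:92593020-92593149, plus strand): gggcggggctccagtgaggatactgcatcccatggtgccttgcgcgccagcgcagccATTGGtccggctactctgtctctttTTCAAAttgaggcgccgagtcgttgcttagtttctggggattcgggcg
PRC1 (chr15:90994516-90994645, minus strand): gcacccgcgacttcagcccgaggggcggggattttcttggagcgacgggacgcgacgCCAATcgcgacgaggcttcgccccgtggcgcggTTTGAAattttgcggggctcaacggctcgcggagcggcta
ANLN (chr7:36389752-36389881, plus strand): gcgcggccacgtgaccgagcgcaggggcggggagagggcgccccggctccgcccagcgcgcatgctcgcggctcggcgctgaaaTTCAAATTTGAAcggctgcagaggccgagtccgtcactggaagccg
In CCNB2, PLK1, CDC25C, ZWINT, KIF11 and PRC1 the CCAAT letters, on one strand or the other, lay upstream of TTTGAA. The windows printed for CCNB1 and PTTG1 held CCAAT and no TTTGAA, and that for ANLN held TTTGAA and no CCAAT. Only these exact letters were searched for. A window without them is not shown to lack the element, and the shares above are not shares of promoters with a CHR.

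Gene reads per library ranged from 4078450 to 6685898 among the DMSO, SCDi, siCTR and siSCD#2 libraries, and from 2402788 to 7483010 among those of siCTR_1 and siSCD#1. A gene with 3 reads, the limit that a count of 0 allows, thus stood at 0.416 to 0.720 and at 0.388 to 1.19 CPM (reads scaled to a common library size). Summed over the libraries of a table, the members had a median of 9408 and 4382 reads, and SPC24 was far below the rest, with 153 and 60 reads. The targeted gene fell with both siRNAs: SCD changed by -2.85 and -2.67 on the log2 scale with siSCD#1, and by -4.33 and -4.15 with siSCD#2, in 501mel and IGR37 respectively. With the inhibitor, which acts on the enzyme, SCD RNA changed by 0.29 (SE 0.16, adjusted p = 0.573) in 501mel and 0.63 (SE 0.16, adjusted p = 0.00215) in IGR37. The pigment cell markers MITF, SOX10, MLANA, PMEL, TYR, DCT and TYRP1 lay between 6.05 and 11.4 log2 CPM in every library of the first table. Of the 18 epithelial, fibroblast, blood and endothelial markers, the first table listed 7, and LUM reached the highest value among them, 4.20 log2 CPM in IGR37. The annotation (GENCODE 29) holds 15 pseudogenes named by a member's symbol followed by P, for 10 members. These were AURKA, BUB1, BUB3, CCNB2, CDC20, CKAP2, DLGAP5, MKI67, NCAPG and UBE2C, and reads of such copies could be counted to either gene. Copies with other forms of name were not searched for. The 3 siSCD#2 libraries of IGR37 stood apart by their spread: the median SD over the members was 0.21 there and 0.09 to 0.16 in the other 11 groups. Their SCD levels differed as well, at 6.52, 5.32 and 6.09 log2 CPM. In bulk RNA a smaller number of dividing cells and less RNA per dividing cell cannot be told apart.

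In IGR37 most of the mitosis genes were lower with the inhibitor, with siSCD#1 and with siSCD#2, and in 501mel many were lower with siSCD#1. With siSCD#2 in 501mel the share lower was near that of all genes, and with the inhibitor in 501mel no member passed the test. A gene is counted as lower or higher at an adjusted p under 0.05 in limma, adjusted over all genes of its table, and changes are given on the log2 scale, on which -1 is a 2-fold fall. In IGR37, siSCD#1 lowered 46 of 47 members, with SPC24 the exception, and raised 0 (all genes: 19.4% lower, 16.7% higher), with a median change of -0.98. In the same line siSCD#2 lowered 39 and raised 0 (all genes: 22.7% and 23.2%), with a median of -0.61. A fit of the siSCD#2 and siCTR groups of IGR37 alone called 2158 genes lower and 2300 higher, beside 3035 and 3101. Members that lost their call in that fit included AURKA, BUB1, TTK, CDC25B and PLK1. The inhibitor lowered 30 and raised 1 in IGR37 (all genes: 23.1% and 20.9%), with a median of -0.44. In 501mel, siSCD#1 lowered 29 and raised 3 (all genes: 22% and 20.9%), with a median of -0.38. With siSCD#2 in 501mel, 12 were lower and 4 higher (all genes: 19.5% and 18.3%), which is 25.5% and 8.51% of the members, and the median was -0.12. Over all genes tested, the median change of each of these comparisons lay between -0.01 and 0.01. Centring the libraries on the spike-ins turned the siSCD#2 split in 501mel to 25 lower and 0 higher, and the inhibitor split in IGR37 to 17 lower and 0 higher. The number of members at least 2-fold lower was 18 with siSCD#1, 8 with siSCD#2 and 4 with the inhibitor in IGR37, and 2, 1 and 0 in 501mel.

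**Figure D1:**
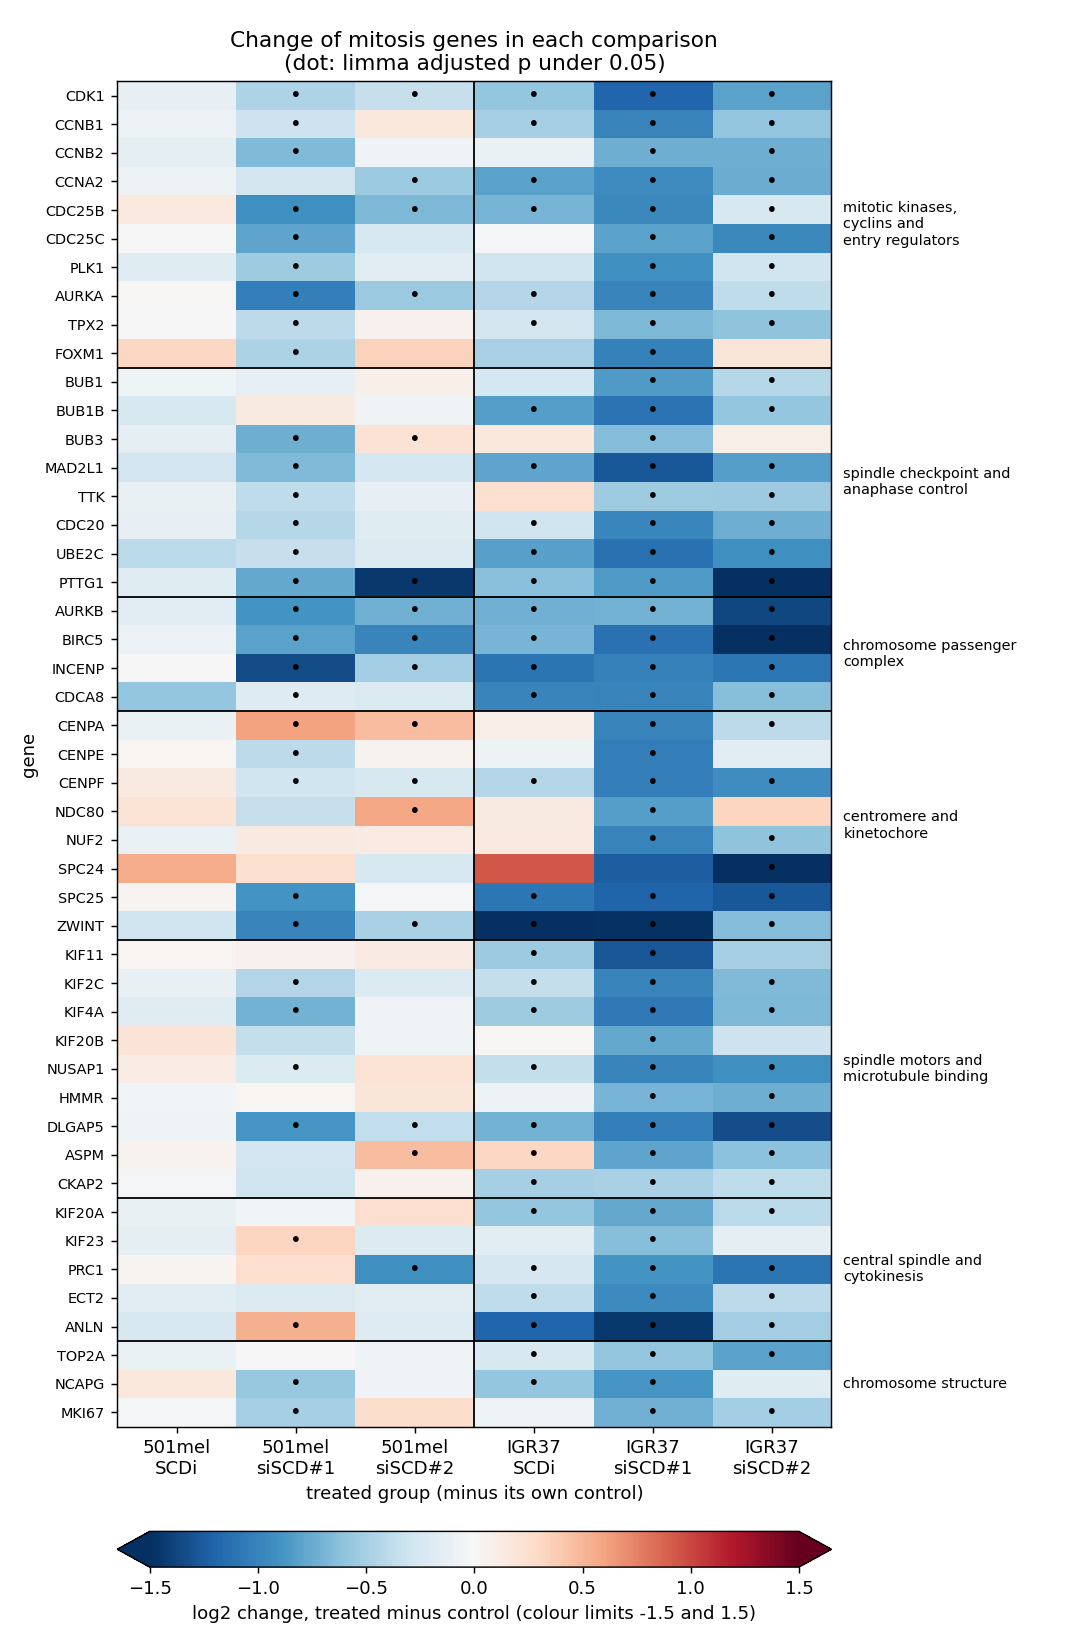
Colour map of the log2 change (treated minus its own control) of the 47 genes (vertical axis, grouped by role) in the 6 comparisons (horizontal axis), with a dot where the limma adjusted p was under 0.05 and colours capped at -1.5 and 1.5. The IGR37 siSCD#1 column has 46 dots, all on falls, and the 501mel inhibitor column has 0.

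With the inhibitor in 501mel, 0 members were lower and 0 higher in limma (all genes: 0.0599% and 0.232%), and voom weights on the recovered reads also gave 0. At an unadjusted p under 0.05, 4 members were lower and 0 higher (all genes: 4.56% and 5.25%). These were CDCA8, a subunit of the chromosome passenger complex, at -0.58 (SE 0.15, adjusted p = 0.116), UBE2C at -0.41 (SE 0.15, adjusted p = 0.341), ZWINT at -0.30 (SE 0.13, adjusted p = 0.449) and MAD2L1 at -0.29 (SE 0.14, adjusted p = 0.481). All 3 inhibitor libraries lay below all 3 DMSO libraries for 11 members and above them for 3 (all genes: 8.9% and 9.61%). The members' median was -0.09. It turned to 0.46, with 14 members higher and 0 lower, when libraries were centred on the spike-ins, which moved the median of all genes by 0.55. Single spike-ins moved between -2.54 and 0.50 in that comparison (SD 1.11 over 22 spike-ins), so they did not move together. The SD was similar in the other comparisons of treated and control groups, at 1.12 to 1.28.

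The comparisons with the inhibitor, siSCD#1 and siSCD#2 within a line share no libraries. In IGR37, 28 members were lower in all 3 (6.09% of the 12896 genes in both tables), which was 93.3% of those lower with the inhibitor, 60.9% of those lower with siSCD#1 and 71.8% of those lower with siSCD#2. In 501mel, 10 members were lower with both siRNAs (8.06% of genes), 34.5% of the siSCD#1 list and 83.3% of the siSCD#2 list. The same 10 were lower in all 5 comparisons (2.77% of genes). They were CDK1, CDC25B, AURKA, PTTG1, AURKB, BIRC5, INCENP, CENPF, ZWINT and DLGAP5.

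Of the 10 kinases, cyclins and entry regulators, 10 were lower with siSCD#1, 9 with siSCD#2 and 6 with the inhibitor in IGR37, and 9, 4 and 0 in 501mel. None was higher in any of the 6 comparisons. CDK1, the kinase at the centre of mitotic entry, had siCTR_1 levels of 7.23, 7.25 and 7.28 log2 CPM in the 3 IGR37 libraries and 6.20, 5.83 and 6.16 with siSCD#1. Every siSCD#1 library lay below every control, and CDK1 fell by 1.19 (SE 0.09, adjusted p = 5.45e-08). In 501mel the same pair of groups read 7.96, 7.96 and 8.08 against 7.54, 7.57 and 7.51, again with no overlap, and CDK1 fell by 0.46 (SE 0.09, adjusted p = 0.000542). With the inhibitor it went from 7.06, 7.16 and 6.99 to 6.51, 6.60 and 6.38 in IGR37. This was a fall of 0.58, with the groups apart (SE 0.09, adjusted p = 5.46e-06). With siSCD#2 it fell by 0.80 (SE 0.09, adjusted p = 4.18e-08) in IGR37 and fell by 0.35 (SE 0.09, adjusted p = 0.00244) in 501mel.

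CCNB1, the cyclin that activates CDK1, was lower with siSCD#2 in IGR37 and did not pass the test in 501mel. In 501mel it read 6.42, 6.41 and 6.37 with siCTR and 6.63, 6.60 and 6.43 with siSCD#2, and in IGR37 7.51, 7.55 and 7.48 and 6.76, 6.91 and 7.09. The siSCD#2 libraries were all above the controls in 501mel, with a change of 0.15 (SE 0.09, adjusted p = 0.191), and all below them in IGR37, where CCNB1 fell by 0.59 (SE 0.09, adjusted p = 6.22e-06). With siSCD#1 it fell by 0.32 in 501mel and by 1.00 in IGR37, and with the inhibitor by 0.50 in IGR37. Its paralogue CCNB2 fell by 0.74 (SE 0.09, adjusted p = 1.63e-05) with siSCD#1 and fell by 0.74 (SE 0.09, adjusted p = 3.59e-07) with siSCD#2 in IGR37, and had -0.10 (SE 0.09, adjusted p = 0.391) with the inhibitor. CCNA2, the cyclin of S and G2 phase, fell by 0.80 (SE 0.13, adjusted p = 1.02e-05) with the inhibitor in IGR37, and its 501mel fall with siSCD#2 was 0.55.

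The phosphatases that switch CDK1 on also differed from each other. CDC25B fell by 0.70 (SE 0.09, adjusted p = 3.67e-07) with the inhibitor in IGR37, whereas CDC25C had -0.02 (SE 0.17, adjusted p = 0.934). The siSCD#2 order in the same line was the other way round, with CDC25C at -0.97 and CDC25B at -0.25, both past the threshold. AURKA, the Aurora kinase of the spindle poles, read 8.57, 8.54 and 8.47 with siCTR_1 and 7.50, 7.42 and 7.59 with siSCD#1 in 501mel, where it fell by 1.02 (SE 0.10, adjusted p = 8.54e-07). In IGR37 it read 7.94, 7.58 and 7.72 and 6.87, 6.53 and 6.83, and it fell by 1.00 (SE 0.10, adjusted p = 1.32e-06). The groups were apart in both lines. TPX2, the activator of AURKA, had smaller falls with siSCD#1, -0.39 in 501mel and -0.67 in IGR37. PLK1, the Polo kinase, fell by 0.92 (SE 0.08, adjusted p = 5.12e-07) with siSCD#1 in IGR37, and had -0.30 (SE 0.12, adjusted p = 0.0502) with the inhibitor there.

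FOXM1, a transcription factor that drives many late cell cycle genes, varied between libraries. Its siSCD#2 libraries in IGR37 read 6.80, 5.65 and 7.12 against 6.23, 6.40 and 6.41 with siCTR, so that 1 treated library lay below all controls and the other 2 above them, and the change was 0.18 (SE 0.24, adjusted p = 0.575). With siSCD#1 in IGR37 its libraries were close, 5.64, 5.41 and 5.75 against 6.61, 6.52 and 6.69, and it fell by 1.01 (SE 0.13, adjusted p = 1.81e-05). With siSCD#1 in 501mel it fell by 0.47 (SE 0.13, adjusted p = 0.00809). With the inhibitor it had -0.48 (SE 0.24, adjusted p = 0.104) in IGR37 and 0.31 (SE 0.24, adjusted p = 0.736) in 501mel. Among the calls of this group, those lost on leaving out a single library were TPX2 with the inhibitor in IGR37 (without DMSO library 1 or 3 or SCDi library 1, adjusted p up to 0.13), FOXM1 with siSCD#1 in 501mel (without siCTR_1 library 3, adjusted p up to 0.052), CDC25B with siSCD#2 in IGR37 (without siCTR library 2 or 3 or siSCD#2 library 2, adjusted p up to 0.2) and PLK1 with siSCD#2 in IGR37 (without siCTR library 1, 2 or 3 or siSCD#2 library 2, adjusted p up to 0.38).

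**Figure D2:**
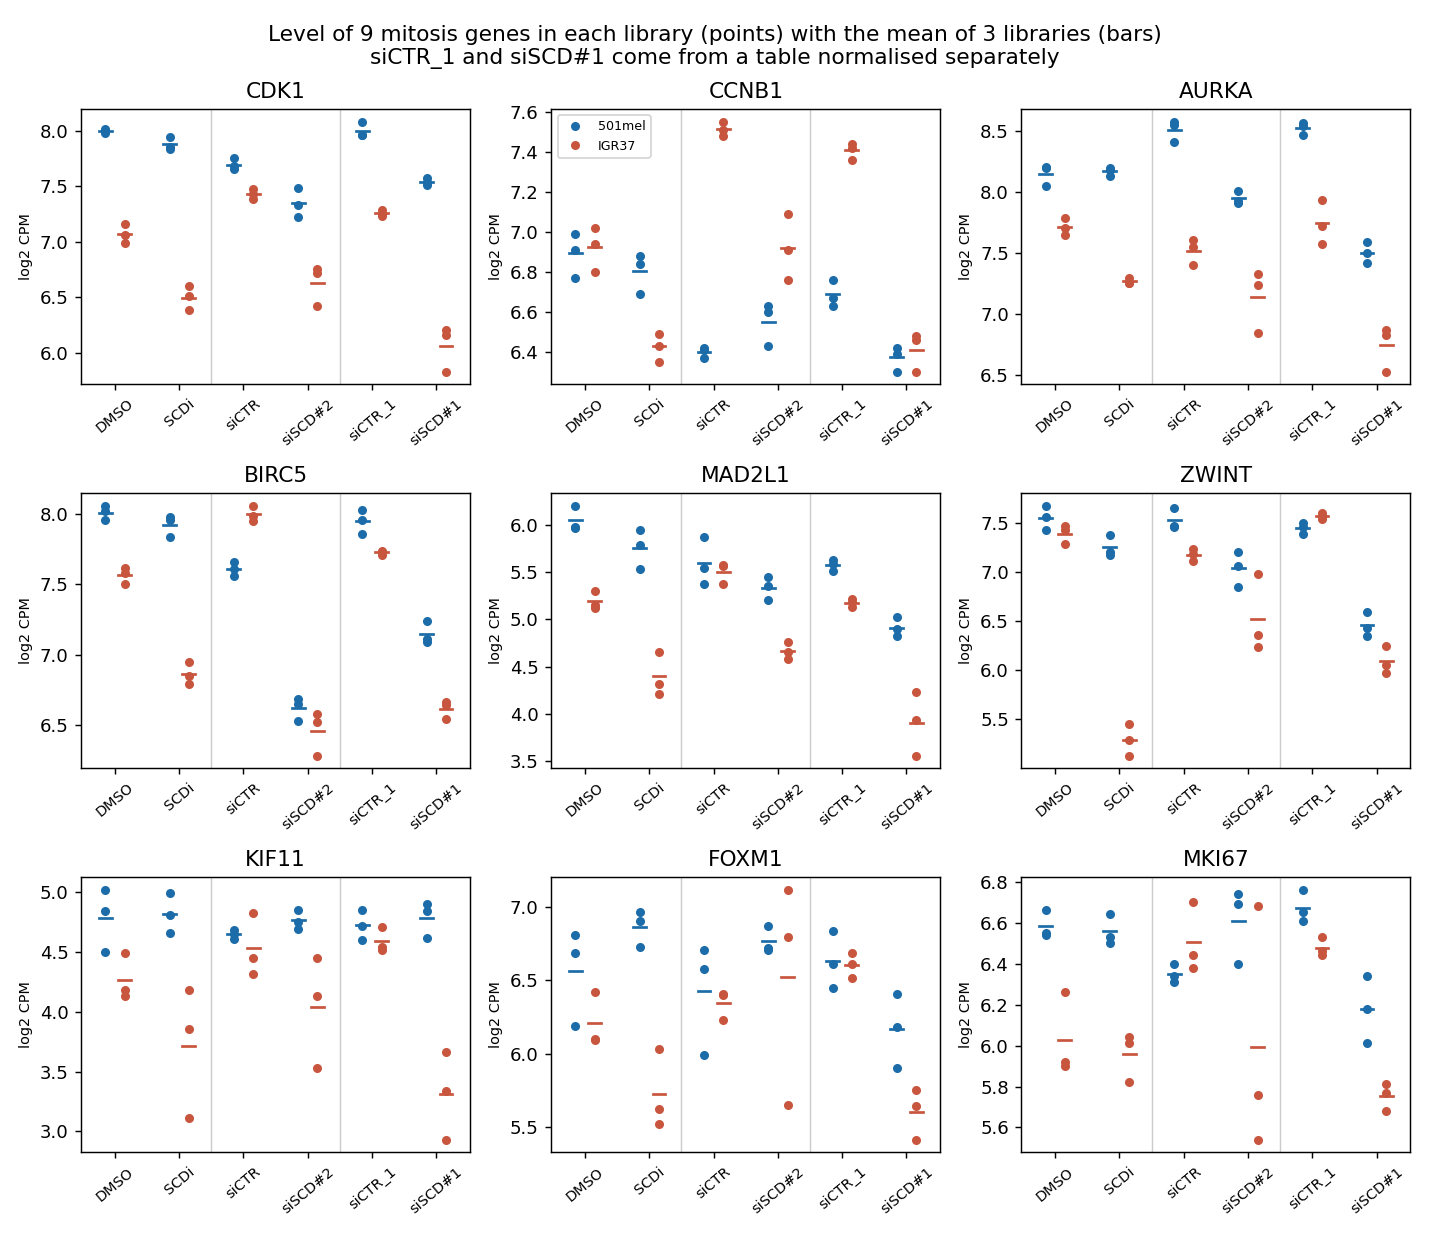
Level (log2 CPM, vertical axis of each panel with its own range) of 9 mitosis genes in each of the 36 libraries, by group (horizontal axis) and line (blue 501mel, red IGR37), points being libraries and bars the mean of 3. The siCTR_1 and siSCD#1 groups belong to the separately normalised table. The IGR37 siSCD#2 points of FOXM1 run from 5.65 to 7.12, while those of BIRC5 run from 6.28 to 6.58.

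The 8 genes of the spindle checkpoint and anaphase control were all lower with siSCD#1 in IGR37, where 7 were lower with siSCD#2 and 5 with the inhibitor. In 501mel the counts were 6, 1 and 0, with 1 higher with siSCD#2. MAD2L1, whose protein binds CDC20 to hold anaphase back, read 5.18, 5.13 and 5.21 with siCTR_1 and 3.56, 4.23 and 3.94 with siSCD#1 in IGR37. The groups were apart and it fell by 1.27 (SE 0.14, adjusted p = 5.11e-06). With the inhibitor it went from 5.12, 5.30 and 5.15 to 4.66, 4.32 and 4.21 in IGR37 and fell by 0.79 (SE 0.14, adjusted p = 2.98e-05). BUB1, the kinase that marks the kinetochore for the checkpoint, fell by 0.85 (SE 0.18, adjusted p = 0.0018) with siSCD#1 in IGR37 and had -0.27 (SE 0.11, adjusted p = 0.0563) with the inhibitor. BUB1B, a checkpoint protein of the kinetochore, fell by 1.10 (SE 0.12, adjusted p = 3.33e-06) with siSCD#1 in IGR37 and had 0.13 (SE 0.12, adjusted p = 0.412) in 501mel.

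BUB3, the partner of both BUB1 and BUB1B, stood apart from the rest of this group with siSCD#2. It was the only gene of the group not lower in IGR37 and the only gene higher in 501mel. It fell with siSCD#1 in both lines, by 0.74 in 501mel and 0.65 in IGR37 (SE 0.08 each, adjusted p = 1.32e-06 and 7.13e-06). In 501mel siSCD#2 gave the opposite sign: it read 7.23, 7.26 and 7.05 with siCTR and 7.48, 7.41 and 7.29 with siSCD#2, and rose by 0.21 (SE 0.08, adjusted p = 0.0353), a direction that turned to -0.23 under spike-in centring. In IGR37 it had 0.09 (SE 0.08, adjusted p = 0.381) with siSCD#2 and 0.16 (SE 0.08, adjusted p = 0.108) with the inhibitor. TTK, the kinase that starts checkpoint signalling, had 0.26 (SE 0.15, adjusted p = 0.182) with the inhibitor in IGR37 and fell by 0.54 (SE 0.14, adjusted p = 0.00826) with siSCD#1.

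PTTG1, securin, which keeps the cohesin-cutting protease inactive until anaphase, had the largest siSCD#2 fall of any well-covered member in both lines. In 501mel it read 7.79, 7.68 and 7.49 with siCTR and 6.19, 6.31 and 6.12 with siSCD#2. In IGR37 it read 8.52, 8.55 and 8.52 and 6.52, 6.63 and 6.31. The groups were more than 1 log2 unit apart in both lines, and PTTG1 fell by 1.45 (SE 0.09, adjusted p = 3.5e-12) and fell by 2.05 (SE 0.09, adjusted p = 1.47e-14) respectively. With siSCD#1 it fell by 0.77 in 501mel and 0.84 in IGR37, and with the inhibitor by 0.63 in IGR37. PTTG1 has near-identical relatives, PTTG2 and PTTG3P, and how reads matching several places were counted is not given in the sources used here. UBE2C, the ubiquitin-conjugating enzyme of the anaphase-promoting complex, and CDC20, its activator, fell with siSCD#1 by 1.12 and 0.98 in IGR37 and by 0.35 and 0.43 in 501mel. The calls of this group lost on leaving out a single library were CDC20 with the inhibitor in IGR37 (without DMSO library 1, adjusted p up to 0.052), TTK with siSCD#1 in 501mel (without siCTR_1 library 1, 2 or 3 or siSCD#1 library 2 or 3, adjusted p up to 0.15), UBE2C with siSCD#1 in 501mel (without siSCD#1 library 3, adjusted p up to 0.054), BUB3 with siSCD#2 in 501mel (without siCTR library 3 or siSCD#2 library 1 or 2, adjusted p up to 0.19) and TTK with siSCD#2 in IGR37 (without siSCD#2 library 1, adjusted p up to 0.055).

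The chromosome passenger complex, which corrects wrong attachments at the centromere and later guides cytokinesis, had all 4 of its genes lower in 4 of the 6 comparisons, namely the inhibitor, siSCD#1 and siSCD#2 in IGR37, and siSCD#1 in 501mel. With siSCD#2 in 501mel 3 of the 4 were lower and with the inhibitor in 501mel 0. The medians in IGR37 were -0.85 with the inhibitor, -1.01 with siSCD#1 and -1.23 with siSCD#2. BIRC5, survivin, read 7.95, 8.06 and 7.99 with siCTR and 6.52, 6.58 and 6.28 with siSCD#2 in IGR37, and 7.66, 7.56 and 7.61 and 6.68, 6.53 and 6.65 in 501mel. The groups were far apart in both lines, and BIRC5 fell by 1.54 (SE 0.08, adjusted p = 1.01e-13) and fell by 0.99 (SE 0.08, adjusted p = 3.36e-10). With siSCD#1 it fell by 0.80 in 501mel and 1.11 in IGR37, and with the inhibitor by 0.70 in IGR37.

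AURKB, the kinase of the complex, read 8.71, 8.87 and 8.87 with siCTR and 7.49, 7.69 and 7.19 with siSCD#2 in IGR37, groups that did not overlap, and fell by 1.36 (SE 0.10, adjusted p = 4.62e-11). INCENP, the scaffold, read 7.27, 7.15 and 7.19 with siCTR_1 and 6.01, 5.82 and 5.74 with siSCD#1 in 501mel, the largest fall of any member in that comparison, and fell by 1.35 (SE 0.12, adjusted p = 3.44e-07). In IGR37 it fell by 1.01 with siSCD#1, 1.09 with siSCD#2 and 1.10 with the inhibitor. CDCA8, borealin, fell by 0.99 (SE 0.15, adjusted p = 6.22e-06) with the inhibitor and fell by 1.00 (SE 0.08, adjusted p = 8.16e-08) with siSCD#1 in IGR37, but with siSCD#1 in 501mel it read 7.53, 7.51 and 7.58 against 7.63, 7.76 and 7.83, a fall of 0.20. The calls lost on leaving out a single library were CDCA8 with siSCD#1 in 501mel (without siCTR_1 library 2 or 3 or siSCD#1 library 1, 2 or 3, adjusted p up to 0.19) and INCENP with siSCD#2 in 501mel (without siCTR library 1 or siSCD#2 library 3, adjusted p up to 0.057).

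The 8 centromere and kinetochore genes were more mixed. With siSCD#1 in IGR37, 7 were lower, with siSCD#2 6, and with the inhibitor 3, and in 501mel 4, 2 and 0 were lower while 1 was higher with siSCD#1 and 2 with siSCD#2. ZWINT, which links the outer kinetochore to the checkpoint and dynein machinery, had the largest inhibitor fall of all 47 members in IGR37. It read 7.43, 7.47 and 7.29 with DMSO and 5.13, 5.45 and 5.29 with the inhibitor, groups far apart, and fell by 2.11 (SE 0.13, adjusted p = 2.65e-12). In 501mel the same groups read 7.43, 7.68 and 7.57 and 7.21, 7.18 and 7.38, apart by a narrow margin. With siSCD#1 ZWINT fell by 1.48 (SE 0.09, adjusted p = 4.27e-09) in IGR37 and fell by 0.99 (SE 0.09, adjusted p = 2.65e-07) in 501mel. With siSCD#2 the falls were 0.66 and 0.49.

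CENPA, the histone variant that marks the centromere, took opposite signs in the lines with both siRNAs. With siSCD#1 it read 5.92, 5.65 and 5.84 against 4.72, 5.51 and 5.38 in 501mel, where the treated libraries were above all controls and it rose by 0.60 (SE 0.16, adjusted p = 0.00773). In IGR37 it read 4.73, 4.76 and 5.01 against 5.93, 5.86 and 5.73, and it fell by 1.01 (SE 0.16, adjusted p = 0.000178). With siSCD#2 it rose by 0.47 (SE 0.16, adjusted p = 0.0223) in 501mel and fell by 0.39 (SE 0.16, adjusted p = 0.0485) in IGR37. Both rises in 501mel fell below the threshold under spike-in centring, with no change of sign.

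The NDC80 complex, the microtubule-binding arm of the kinetochore, is made of NDC80, NUF2, SPC24 and SPC25. SPC25 fell by 1.09 (SE 0.17, adjusted p = 1.09e-05) with the inhibitor in IGR37 and fell by 1.27 (SE 0.17, adjusted p = 1.38e-06) with siSCD#2, and in 501mel it fell by 0.90 (SE 0.13, adjusted p = 6.01e-05) with siSCD#1. Its partners did not share the inhibitor fall in IGR37: NDC80 had 0.13 (SE 0.17, adjusted p = 0.55) and NUF2 had 0.15 (SE 0.14, adjusted p = 0.422). In 501mel NDC80 with siSCD#2 read 4.64, 4.74 and 4.73 against 4.06, 4.16 and 4.16, a clear separation, and rose by 0.58 (SE 0.17, adjusted p = 0.00714), a call lost under spike-in centring. SPC24 had 9 reads in the 3 siSCD#2 libraries and 49 in the 3 siCTR libraries of IGR37, with a fitted change of -2.50 (SE 0.90, adjusted p = 0.0251). At this depth the size of that change is uncertain. CENPF, a large outer kinetochore protein, was lower in all 3 IGR37 comparisons (-0.44 with the inhibitor, -1.02 with siSCD#1, -0.93 with siSCD#2), and CENPE, the kinesin that brings chromosomes to the spindle centre, was lower there with siSCD#1 (-1.04) and did not pass the test with the inhibitor (-0.08) or siSCD#2 (-0.16). The calls lost on leaving out a single library were CENPE with siSCD#1 in 501mel (without siCTR_1 library 1, 2 or 3 or siSCD#1 library 1 or 2, adjusted p up to 0.14), CENPF with siSCD#1 in 501mel (without siCTR_1 library 2 or siSCD#1 library 1 or 2, adjusted p up to 0.1), CENPA with siSCD#2 in 501mel (without siCTR library 1 or siSCD#2 library 1 or 2, adjusted p up to 0.16), CENPF with siSCD#2 in 501mel (without siCTR library 2 or 3 or siSCD#2 library 1 or 2, adjusted p up to 0.12), CENPA with siSCD#2 in IGR37 (without siCTR library 1, 2 or 3 or siSCD#2 library 2, adjusted p up to 0.23) and SPC24 with siSCD#2 in IGR37 (without siCTR library 3 or siSCD#2 library 1 or 2, adjusted p up to 0.11).

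Of the 9 spindle motors and microtubule-binding proteins, 9 were lower with siSCD#1, 7 with siSCD#2 and 6 with the inhibitor in IGR37, and 4, 1 and 0 in 501mel. KIF11, the motor that pushes the spindle poles apart, read 4.71, 4.52 and 4.54 with siCTR_1 and 3.66, 2.93 and 3.34 with siSCD#1 in IGR37, with no overlap, and fell by 1.28 (SE 0.17, adjusted p = 2.57e-05). In 501mel the same groups read 4.85, 4.60 and 4.72 and 4.84, 4.62 and 4.90, overlapping, with 0.06 (SE 0.17, adjusted p = 0.802). With the inhibitor in IGR37 its libraries read 4.18, 3.11 and 3.86 against 4.18, 4.49 and 4.13. These groups overlapped, and 1 library was much lower than the rest, although the fit gave -0.55 (SE 0.22, adjusted p = 0.0456).

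DLGAP5, which stabilises spindle fibres near the kinetochore, was lower in every comparison outside the inhibitor in 501mel, and with siSCD#2 in IGR37 it read 3.59, 4.21 and 3.65 against 5.10, 4.96 and 5.37 and fell by 1.32 (SE 0.15, adjusted p = 5.53e-08). NUSAP1, a spindle-bundling protein, fell by 0.92 (SE 0.10, adjusted p = 5.25e-08) with siSCD#2 in IGR37, whereas in 501mel it had 0.20 (SE 0.10, adjusted p = 0.124). ASPM, a spindle pole protein, was the only member higher with the inhibitor in IGR37. It read 5.04, 5.13 and 4.85 against 4.58, 4.79 and 4.72 with DMSO, a narrow gap, and rose by 0.31 (SE 0.12, adjusted p = 0.0408). That call was also lost under median centring, spike-in centring, voom weights and the replicate block. ASPM rose by 0.46 (SE 0.12, adjusted p = 0.00389) with siSCD#2 in 501mel and fell by 0.61 (SE 0.12, adjusted p = 0.000201) in IGR37. The motors KIF2C and KIF4A, which shorten microtubules and organise chromosome arms, fell in all 3 IGR37 comparisons, by 0.36 to 1.07, while KIF20B, a late mitotic kinesin, was lower there with siSCD#1 (-0.77) and had 0.02 and -0.31 with the inhibitor and siSCD#2. HMMR, a spindle-associated protein, was lower with the siRNAs in IGR37 (-0.70 and -0.73), and CKAP2 in all 3 comparisons there (-0.50 with the inhibitor). The calls lost on leaving out a single library were KIF11 with the inhibitor in IGR37 (without DMSO library 1, 2 or 3 or SCDi library 2 or 3, adjusted p up to 0.38), NUSAP1 with the inhibitor in IGR37 (without SCDi library 3, adjusted p up to 0.059), ASPM with the inhibitor in IGR37 (without DMSO library 1 or 3 or SCDi library 1 or 2, adjusted p up to 0.16), NUSAP1 with siSCD#1 in 501mel (without siCTR_1 library 1, 2 or 3 or siSCD#1 library 1, 2 or 3, adjusted p up to 0.19) and DLGAP5 with siSCD#2 in 501mel (without siCTR library 1 or 3 or siSCD#2 library 1 or 2, adjusted p up to 0.19).

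The 5 genes of the central spindle and cytokinesis gave opposite counts in the lines with siSCD#1: 0 were lower and 2 higher in 501mel, and 5 were lower and 0 higher in IGR37. ANLN, anillin, which organises the contractile ring, read 5.24, 5.58 and 5.67 with siCTR_1 and 6.28, 5.82 and 5.99 with siSCD#1 in 501mel, and 6.41, 6.36 and 6.12 and 4.95, 4.34 and 5.24 in IGR37. The treated libraries lay above the controls in 501mel, where it rose by 0.53 (SE 0.19, adjusted p = 0.0307), and below them in IGR37, where it fell by 1.45 (SE 0.19, adjusted p = 1.84e-05). The 501mel rise was lost under median and spike-in centring. With the inhibitor in IGR37 it fell by 1.19 (SE 0.15, adjusted p = 5.79e-07), the second largest fall of that comparison. KIF23, the motor of the centralspindlin complex, rose by 0.33 (SE 0.12, adjusted p = 0.0416) with siSCD#1 in 501mel and fell by 0.64 (SE 0.12, adjusted p = 0.000702) in IGR37.

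PRC1, which bundles the microtubules of the central spindle, was lower with siSCD#2 in 501mel and did not pass the test with siSCD#1 there. It read 6.48, 6.43 and 6.31 with siSCD#2 against 7.39, 7.22 and 7.39 with siCTR, and 7.97, 7.80 and 7.87 with siSCD#1 against 7.45, 7.75 and 7.69 with siCTR_1. It fell by 0.92 (SE 0.08, adjusted p = 5.33e-10) with siSCD#2 and had 0.25 (SE 0.10, adjusted p = 0.0669) with siSCD#1, values from separately normalised tables whose difference was not tested. In IGR37 it fell by 1.09 with siSCD#2, 0.90 with siSCD#1 and 0.26 with the inhibitor. KIF20A, which carries the passenger complex to the central spindle, and ECT2, the activator of RhoA there, were lower in all 3 IGR37 comparisons (by 0.40 to 0.77 and by 0.38 to 0.95). The calls lost on leaving out a single library were ECT2 with the inhibitor in IGR37 (without DMSO library 2 or 3 or SCDi library 2, adjusted p up to 0.14), KIF23 with siSCD#1 in 501mel (without siCTR_1 library 1 or 2 or siSCD#1 library 2 or 3, adjusted p up to 0.21), ANLN with siSCD#1 in 501mel (without siCTR_1 library 1 or siSCD#1 library 1 or 3, adjusted p up to 0.14) and ECT2 with siSCD#2 in IGR37 (without siCTR library 1 or 2 or siSCD#2 library 1, adjusted p up to 0.1).

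Of the 3 chromosome structure genes, TOP2A, the enzyme that untangles sister DNA, fell in IGR37 with the inhibitor (0.24), siSCD#1 (0.59) and siSCD#2 (0.81), and did not pass the test in 501mel (adjusted p = 0.972 with siSCD#1). NCAPG, a condensin subunit, fell with siSCD#1 in 501mel (0.57) and IGR37 (0.89) and with the inhibitor in IGR37 (0.58). MKI67, which coats mitotic chromosomes and is the usual stain for cycling cells, read 6.65, 6.76 and 6.61 with siCTR_1 and 6.01, 6.18 and 6.34 with siSCD#1 in 501mel, and 6.46, 6.53 and 6.44 and 5.77, 5.68 and 5.81 in IGR37. The groups were apart in both lines, and it fell by 0.50 (SE 0.09, adjusted p = 0.000396) and fell by 0.72 (SE 0.09, adjusted p = 1.55e-05). With the inhibitor in IGR37 it read 6.04, 5.82 and 6.01 against 5.92, 5.90 and 6.26, groups that overlapped, with -0.07 (SE 0.18, adjusted p = 0.789). With siSCD#2 in IGR37 it read 5.76, 5.54 and 6.68 against 6.44, 6.38 and 6.70. Here 1 treated library lay among the controls, and the fit gave -0.51 (SE 0.18, adjusted p = 0.019), a call lost without siCTR library 3 or siSCD#2 library 1 or 2 (adjusted p up to 0.16).

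The falls were larger in IGR37 than in 501mel for many members when the difference between the lines was itself tested. The inhibitor's effect was lower in IGR37 than in 501mel for 20 members and higher for 1 (all genes: 15.3% and 12.3%), with a median difference of -0.41. ZWINT led with -1.81 (SE 0.19, adjusted p = 8.77e-08), followed by SPC25 at -1.13 (SE 0.24, adjusted p = 0.000937) and INCENP at -1.09 (SE 0.23, adjusted p = 0.000837), and BUB3 was the 1 in the other direction at 0.31 (SE 0.11, adjusted p = 0.0396). For siSCD#1, 27 were lower in IGR37 and 0 higher (all genes: 10.3% and 10%), with a median of -0.55. ANLN at -1.99 (SE 0.26, adjusted p = 0.000169), CENPA at -1.61 (SE 0.23, adjusted p = 0.000318) and KIF11 at -1.35 (SE 0.24, adjusted p = 0.00141) had the largest differences past the threshold, beside SPC24, with few reads, at -1.49 (SE 1.09, adjusted p = 0.369). For siSCD#2, 26 were lower and 1 higher (all genes: 9.47% and 11.6%), with a median of -0.55, and the largest past the threshold were SPC25 at -1.24 (SE 0.24, adjusted p = 0.000601), NUSAP1 at -1.12 (SE 0.14, adjusted p = 3.28e-06) and ASPM at -1.07 (SE 0.17, adjusted p = 6.54e-05). CDC25B was the 1 higher, at 0.43 (SE 0.12, adjusted p = 0.0138). SPC24 again had a larger difference that did not pass, -2.26 (SE 1.27, adjusted p = 0.222). The siSCD#1 count fell to 14 lower and 0 higher under spike-in centring. The siSCD#2 count fell to 1 under spike-in centring and to 17 lower and 0 higher in a fit of the 4 groups alone. The inhibitor call of BUB3 was lost without 501mel DMSO library 1 or 3 or 501mel SCDi library 1 or 2 or IGR37 DMSO library 1 or 3 or IGR37 SCDi library 1, 2 or 3 (adjusted p up to 0.1), and turned to -0.19 under spike-in centring.

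**Figure D3:**
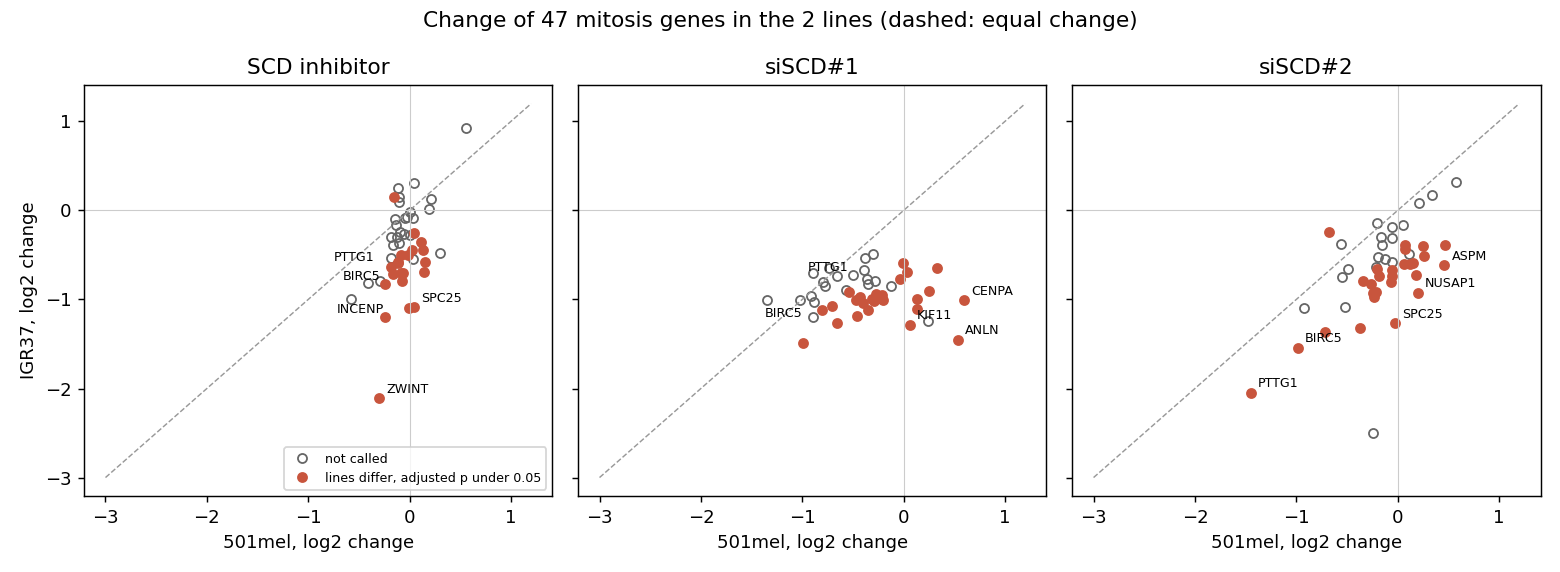
Log2 change of each of the 47 genes in 501mel (horizontal axis) against its change in IGR37 (vertical axis) with the inhibitor, siSCD#1 and siSCD#2, filled red where the difference between the lines had an adjusted p under 0.05, with the dashed line marking equal change. The filled points are 21, 27 and 27, and those below the dashed line number 20, 27 and 26.

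Other members showed small line differences: AURKA with siSCD#1 differed by 0.02 (SE 0.14, adjusted p = 0.94) and INCENP by 0.34 (SE 0.17, adjusted p = 0.184), and ZWINT with siSCD#2 by -0.17 (SE 0.19, adjusted p = 0.574). A p above the threshold does not show equal effects. Before any SCD treatment, under DMSO, 19 members were lower in IGR37 than in 501mel and 5 higher (all genes: 29.7% and 31.1%), with a median of -0.23. The largest differences past the threshold were CCNA2 at -1.45 (SE 0.13, adjusted p = 3.21e-10), CDK1 at -0.92 (SE 0.09, adjusted p = 1.37e-09) and CENPE at -0.87 (SE 0.17, adjusted p = 0.000113), lower in IGR37, and CDC25C at 0.70 (SE 0.17, adjusted p = 0.000927), NUSAP1 at 0.59 (SE 0.10, adjusted p = 1.8e-05) and ANLN at 0.46 (SE 0.15, adjusted p = 0.0125), higher in IGR37. SPC24, with few reads, had -1.49 (SE 0.90, adjusted p = 0.156). Spike-in centring gave 11 lower and 3 higher. CCNA2 read 5.24, 5.22 and 5.20 in IGR37 and 6.58, 6.64 and 6.79 in 501mel, more than 1 log2 unit apart in every pair of libraries. The ANLN call was lost without 501mel DMSO library 1 or IGR37 DMSO library 2 (adjusted p up to 0.077).

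The inhibitor and siSCD#2 stood in the same table, so their effects could be compared within each line. In 501mel the inhibitor's effect was higher (a smaller fall, or a rise) than that of siSCD#2 for 7 members and lower for 1 (all genes: 11.5% and 9.51%), which is 14.9% and 2.13% of the members. The 7 were led by PTTG1 at 1.27 (SE 0.13, adjusted p = 6.44e-08), PRC1 at 0.97 (SE 0.11, adjusted p = 2.91e-07) and BIRC5 at 0.90 (SE 0.11, adjusted p = 1.63e-06), and the 1 was BUB3 at -0.36 (SE 0.11, adjusted p = 0.0198), lost without 501mel DMSO library 3 or 501mel SCDi library 1 or 501mel siCTR library 3 or 501mel siSCD#2 library 1 (adjusted p up to 0.068). Spike-in centring turned BUB3 to 0.63 and gave 38 higher and 0 lower. In IGR37, 17 were higher and 3 lower (all genes: 18.7% and 20.2%). PTTG1 at 1.42 (SE 0.13, adjusted p = 2.84e-09) and CDC25C at 0.95 (SE 0.24, adjusted p = 0.00266) fell more with siSCD#2, as did the thinly covered SPC24 at 3.43 (SE 1.27, adjusted p = 0.0348), a call lost without IGR37 DMSO library 2 or IGR37 SCDi library 1 or 3 or IGR37 siCTR library 3 or IGR37 siSCD#2 library 1 or 2 (adjusted p up to 0.14). ZWINT at -1.45 (SE 0.19, adjusted p = 9.6e-07), ANLN at -0.67 (SE 0.22, adjusted p = 0.0169) and CDC25B at -0.45 (SE 0.12, adjusted p = 0.00495) fell more with the inhibitor. Of these the ANLN call was lost without IGR37 DMSO library 2 or IGR37 siCTR library 2 (adjusted p up to 0.056).

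Other genes of the same machinery, taken from lists by function, had the following counts, to be read against the shares of all genes given above for the same comparisons. Of 31 other kinetochore and centromere genes, 26, 15 and 12 were lower with siSCD#1, siSCD#2 and the inhibitor in IGR37, and 12, 14 and 0 in 501mel, while 1, 1 and 2 and 1, 0 and 0 were higher, led among the falls with siSCD#1 in IGR37 by TRIP13 (-1.73), an ATPase that remodels MAD2. Of 17 condensin and cohesin genes, 14, 12 and 8 were lower and 0, 0 and 0 higher in IGR37, and 5, 5 and 0 lower and 1, 3 and 0 higher in 501mel, with the condensin subunit NCAPH at -1.58 with siSCD#1 in IGR37. Of 31 other spindle and cytokinesis genes, 22, 23 and 15 were lower and 0, 2 and 2 higher in IGR37, and 11, 11 and 0 lower and 4, 4 and 0 higher in 501mel. Of 17 further entry and exit regulators, 11, 8 and 10 were lower and 1, 5 and 3 higher in IGR37, and 9, 7 and 0 lower and 3, 4 and 0 higher in 501mel. Among those lower was CKS1B, a CDK-binding protein, at -1.04 with siSCD#1 and -0.87 with siSCD#2 in IGR37. Of 16 subunits and regulators of the anaphase-promoting complex, 4, 4 and 6 were lower and 2, 3 and 1 higher in IGR37, and 4, 3 and 0 lower and 3, 2 and 0 higher in 501mel. ANAPC11, its RING subunit, was at -0.69 with siSCD#1 in IGR37, and CDC27 was higher with siSCD#2 in both lines (0.95 in 501mel and 0.68 in IGR37).

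The genes of DNA replication, which belong to an earlier phase of the cycle, numbered 38, of which 37, 27 and 33 were lower and 0, 1 and 0 higher in IGR37, and 26, 25 and 0 lower and 0, 0 and 0 higher in 501mel. With the inhibitor in IGR37 their median was -0.998, beside -0.44 for the 47 mitosis genes, and with siSCD#1 in IGR37 both medians were -0.98. With siSCD#2 in 501mel they were -0.50 and -0.12. Of 16 cell cycle brakes, 6, 7 and 4 were higher and 6, 0 and 6 lower in IGR37, and 5, 6 and 0 higher and 2, 2 and 1 lower in 501mel. The stress-induced brake GADD45A was higher in IGR37 with siSCD#1 (1.53), siSCD#2 (2.20) and the inhibitor (2.43), and in 501mel with siSCD#1 (2.90) and siSCD#2 (1.52). In IGR37 CDKN1B, the CDK inhibitor p27, was higher in the same 3 comparisons (1.06, 1.46 and 0.53). RBL1, also on the list of brakes, was lower with siSCD#1 in IGR37 (-1.53) and 501mel (-1.56). The 1 brake past the threshold with the inhibitor in 501mel was CDKN1A, the CDK inhibitor p21, which fell by 2.60 (SE 0.40) and also fell with siSCD#2 there (-2.38). Under DMSO CDKN1A stood 5.47 lower in 501mel than in IGR37. The change of CDKN1A was higher in IGR37 than in 501mel by 4.04 with the inhibitor and 4.45 with siSCD#2 (SE 0.56 each), both past the threshold. The reads behind CDKN1A are not given here, and whether a low level in 501mel shaped the size of these changes was not tested. These lists were not tested as sets.

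**Figure D4:**
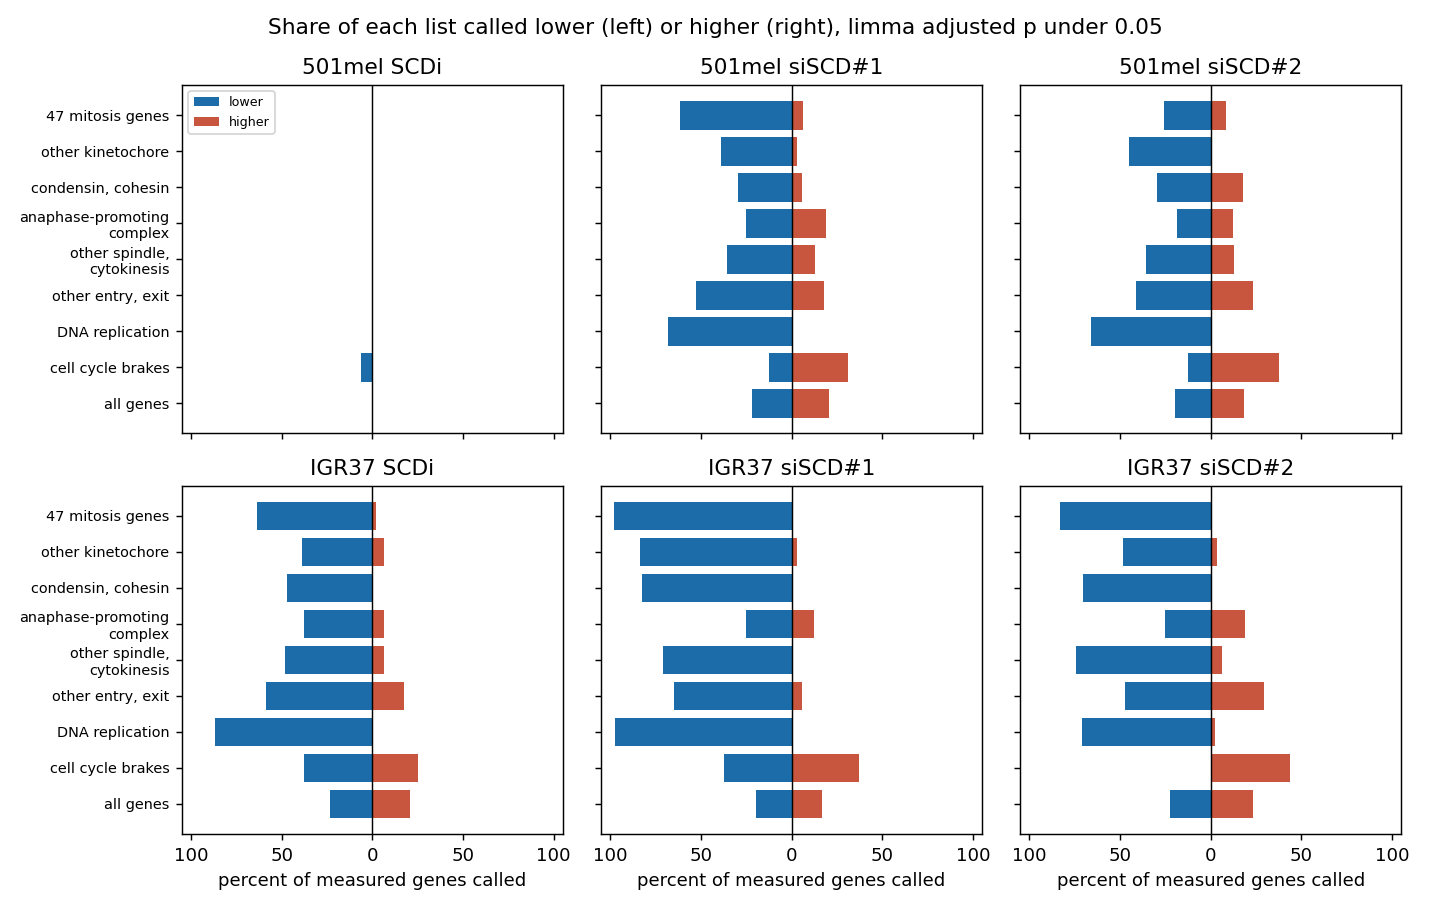
Percent of the measured genes of each list (vertical axis) lower (blue, to the left) or higher (red, to the right) at a limma adjusted p under 0.05, with the percent on the horizontal axis, for the 6 comparisons in separate panels. The 47 mitosis genes reach 97.9% lower with siSCD#1 in IGR37, where 19.4% of all genes were lower, and 0% with the inhibitor in 501mel.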

How the data were processed

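RNA from 36 libraries was sequenced from its 3′ ends (QuantSeq Forward kit, per the labels' protocols). Per the submitters' processing notes the tools were STAR and edgeR and the build hg38, with no versions given; how multi-mapping reads were handled is not given in the sources used here. The values are log2 CPM per gene, deposited by the authors in 2 separately normalised tables with a prior count of 0.25, and the low values gave back whole reads. Limma 3.58.1 in R 4.3.3 (lmFit, contrasts, eBayes with a variance trend) was fitted to all genes and all libraries of a table with 1 coefficient per group. All adjusted p-values in the text are limma's, Benjamini-Hochberg over all genes of the table, with a threshold of 0.05. Groups came from the sample labels. The third siSCD#2 column of IGR37 carries a number that no title has, so it was used as an unnumbered library of its group. Replicate numbers were not used to pair the libraries in the main fit: 5 of 17 pairs had a residual correlation above 0.1 (range -0.19 to 0.25). The highest values, 0.25 and 0.18, were both in 501mel with the inhibitor. These correlations do not show that the libraries were unpaired.

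The 47 genes and the other lists were chosen with earlier results of these data known. All members are named by role; per-library values were planned for 9 of them and for the largest falls and rises of each comparison, and values of other members were added after they were seen. The model code was tested on simulated data. Alternatives covered the libraries fitted, the variance trend, filters, a pseudocount of 1 CPM, 3 scalings, voom weights, a replicate block and leaving out each library. Promoters are from RefSeq (GRCh38.p14), and 3′ UTR sequence is from GENCODE 29.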

Additional observations from a re-analysis of the deposited data

Results flagged for a closer look

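A difference between the lines in the effect of the same perturbation was tested directly in limma, and these results passed at an adjusted p under 0.05. With the inhibitor, 20 members were lower in IGR37 relative to 501mel, with differences of -1.81 for ZWINT, -1.13 for SPC25 and -1.09 for INCENP, and 0.31 for BUB3 in the other direction. With siSCD#1 the count was 27 (14 under spike-in centring), led among these by ANLN (-1.99), CENPA (-1.61) and KIF11 (-1.35). With siSCD#2 it was 26 (1 under spike-in centring and 17 in a fit of the compared groups alone), led among these by SPC25 (-1.24), NUSAP1 (-1.12) and ASPM (-1.07), with CDC25B at 0.43 in the other direction. The basal levels of the lines differed as well, and the part of that in these differences was not tested.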

How the results depend on the processing

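Centring on the spike-ins moved the most results. Single spike-ins did not move together in any comparison of treated and control groups (SD 1.105 to 1.28). The members called became 14 with the inhibitor in 501mel, 17 with the inhibitor in IGR37, 25 with siSCD#2 in 501mel, 14 for the siSCD#1 line difference, 1 for the siSCD#2 line difference, 14 for the DMSO line difference and 38 for the inhibitor against siSCD#2 in 501mel. It reversed the members' median with the inhibitor in 501mel (0.46), and BUB3 with siSCD#2 in 501mel (-0.23), in the inhibitor line difference (-0.19) and in the inhibitor against siSCD#2 in 501mel (0.63). The cause was not tested. A fit of the compared groups alone, with fewer libraries, gave 17 members for the siSCD#2 line difference.

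Leaving out a library gave 0 members called with the inhibitor in 501mel in every fit, 27 to 30 with the inhibitor in IGR37, 26 to 29 and 46 to 46 with siSCD#1 in 501mel and IGR37, and 12 to 17 and 34 to 43 with siSCD#2. The line differences gave 17 to 21 (inhibitor), 20 to 27 (siSCD#1), 21 to 30 (siSCD#2) and 20 to 25 (DMSO), and the inhibitor against siSCD#2 gave 6 to 10 in 501mel and 17 to 21 in IGR37. With the replicate number as a block the counts were 0 and 32 (inhibitor), 31 and 46 (siSCD#1) and 19 and 42 (siSCD#2) in 501mel and IGR37, beside 0, 31, 32, 46, 16 and 39 without it. The block fit also left out the unnumbered siSCD#2 library of IGR37. For the inhibitor and siSCD#2 its counts thus do not show the effect of the block alone. Leaving out that library without a block gave 43 with siSCD#2 in IGR37. Of 291 called member results, 182 kept their call under every alternative, 109 lost it under at least 1, and 60 lost it on leaving out a library. No filter at all gave the same genes as the reported analysis. Depth limits SPC24.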

Other observations

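The short 3′ UTR word that ranked first for a downward change differed between the 2 SCD siRNAs. Over 6629 genes, 14714 7-letter words were ranked from the lowest score, leaving out words held by few genes. Each gene's change was first adjusted for the length and the G and C share of its 3′ UTR. The score was the mean adjusted change of the genes holding the word, multiplied by the square root of their number. The words named here were chosen from these same data and carry no test. GCTTCCT ranked 1 with siSCD#1 in both lines and stood in 19.1% of the genes, whose median change was -0.21 in 501mel (all genes -0.08) and -0.13 in IGR37 (all genes -0.06). CTTCCTA ranked 3 and 2 in the same comparisons, with unadjusted medians of -0.11 and -0.09 for the genes holding it. With siSCD#2 the first word in both lines was TCTGATC, found in 9.37% of genes and in 1 member, TOP2A. The median change of the genes holding it was -0.12 in 501mel (all genes -0.01) and -0.006 in IGR37 (all genes 0.05). With the inhibitor GCTTCCT ranked 9256 in 501mel and 9309 in IGR37. Of the mitosis genes, 12 held GCTTCCT or CTTCCTA. With siSCD#1 their median was -0.53 in 501mel beside -0.35 for the other 35, and -1.01 in IGR37 beside -0.95. In 501mel the 12 ranged from -1.35 to 0.25 and the other 35 from -0.99 to 0.60. Whether these words match the siRNAs was not tested, because the siRNA sequences are not in the sources used here. The sites below show 25 bases of the 3′ UTR from GENCODE 29 on hg38, with the word in capitals. They belong to some of the 12 members, picked for a large siSCD#1 fall in 501mel. In the BUB3 site the base after the capitals completes CTTCCTA as well.
INCENP (chr11:62152552-62152576, plus strand): gtggagctcCTTCCTAttttttggg
AURKA (chr20:56369761-56369785, minus strand): tgcaataacCTTCCTAgtacctgag
BIRC5 (chr17:78225294-78225318, plus strand): cacctgaaaGCTTCCTcgacatctg
BUB3 (chr10:123165088-123165112, plus strand): gctttgtttGCTTCCTacaaataca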
